A study of Mus musculus with 4 samples.

Results

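The genes studied here encode SNARE proteins and the factors that act on them. They were chosen by gene symbol, with earlier results of these data known: the vesicle-associated membrane proteins (Vamp), the syntaxins (Stx), the Vti1, Gosr, Bet1 and Sec22 genes, the Snap23, Snap25, Snap29 and Snap47 genes, Ykt6, Use1 and Bnip1, the syntaxin-binding genes (Stxbp), Scfd1 and Scfd2, and the disassembly genes Nsf, Napa, Napb and Napg. Of 45037 probe sets on the array, 127 carried 1 such symbol, for 49 of 18193 genes. A probe set is the group of short probes on an Affymetrix array that reads 1 transcript. Cytoplasmic RNA was compared between Neuro2A cells in which 4.5SH, a short noncoding transcript of rodents, had been knocked down and control Neuro2A cells, with 2 arrays of biological replicates in each group. Neuro2A is a mouse neuroblastoma line. The labels give 1 transfection protocol for both groups, with antisense oligonucleotides at 30 nM. They do not name the oligonucleotide of the control cells, so a response to less 4.5SH and one to the oligonucleotide itself cannot be told apart. The study sought genes with an antisense B1 repeat on which 4.5SH acts. As only the cytoplasmic fraction was measured, changes in synthesis, nuclear export and stability of an mRNA cannot be told apart either.

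SNARE proteins drive the fusion of vesicles with their target membranes. A SNARE on the vesicle, usually an R-SNARE such as a Vamp protein, and Q-SNAREs on the target, such as a syntaxin, zip into a bundle that pulls both membranes together. SM proteins (here those of Stxbp2, Stxbp3, Scfd1 and Scfd2) guide this assembly, and the other Stxbp genes encode further syntaxin-binding proteins. The ATPase encoded by Nsf, with its adaptors encoded by Napa, Napb and Napg, takes used bundles apart. Each step of traffic has its own SNAREs, which is why the genes are described below by the membrane where their protein mainly works. Neurons use the plasma membrane set for transmitter release.

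On these arrays most changes were downward. The median log2 fold change, knockdown minus control, over 11814 tested genes was -0.17 on the deposited scale. It was -0.04 with quantile scaling, -0.03 when each array was centred on its tested probe sets (array centring) and -0.29 with spike-in scaling. With these scalings 1057 genes rose and 3881 fell as deposited, 1981 rose and 2526 fell with quantile scaling, 1882 rose and 2715 fell with array centring, and with spike-in scaling 478 were higher and 4989 lower. A member's change is best read against these values. The 2% trimmed mean signal was 127.7 and 132.3 on the knockdown arrays and 148.7 and 143.5 on the control arrays, and having 2 arrays a group limits the precision. Of 11 measured neuroblastoma markers 8 were above the filter (Gata3, Nefl and Nefm were not), with a summed signal of 8806 to 8935 in the knockdown against 9632 to 9661 in the control. Of 12 markers of other cell types 3 were above it, with summed signals of 151.8 and 173.3 in the knockdown against 268.2 and 255.0 in the control. None was at 0 on any array. The endothelial marker Pecam1 made up the largest share, at 63.1 and 69.7 in the knockdown against 154.2 and 118.3 in the control. The part of such signals in the results was not tested.

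Values were tested as log2(signal + 16), which understates the change of dim genes. A probe set was tested where its mean signal over the 4 arrays was at or above 16.9, the median of the array. This left 102 of the 127 probe sets and 46 of the 49 genes; Stx19, Stxbp5l and Stxbp6 had none. A gene is given by its brightest tested probe set unless stated. Errors given with ± are limma standard errors, from 2 arrays in each group. A change was called where the limma adjusted p was under 0.05.

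Vamp4 stood out among the SNARE genes. Its protein is an R-SNARE of the trans-Golgi network that serves traffic between that compartment and endosomes. The brightest probe set (1422895_at) read 530.2 and 533.8 in the knockdown arrays against 201.0 and 203.3 in the control arrays. Both knockdown values were thus far above both control values, and replicates lay within 4 signal units of each other. The log2 fold change was 1.33 ± 0.09 (limma adjusted p = 4.25e-07). A further probe set (1434796_at) read 255.7 and 256.9 in the knockdown against 97.8 and 94.8 in the control, a log2 fold change of 1.28 ± 0.12 (limma adjusted p = 2.95e-06). The last one (1422896_at), too dim to be tested, read 16.4 and 13.5 in the knockdown against 4.2 and 6.2 in the control. All 3 probe sets for Vamp4 therefore had the knockdown above the control without overlap. Among 22524 tested probe sets the brightest ranked 25 and the other 36 by size of rise. Under the alternatives tried the change of Vamp4 stayed between 1.16, with a pseudocount of 64, and 1.51, with quantile scaling, and passed each time.

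The gene for Vamp4 lies on chromosome 1. Printed here are the 250 bases before each annotated start of Vamp4 and before that of the genes with the largest falls by brightest probe set, Stx18 and Scfd1, from RefSeq on GRCm38.p6. They are shown so that the upstream sequences of genes that moved in opposite directions can be compared; the arrays did not measure promoter activity. Capitals mark every match, on either strand, to the E-box CACGTG, the GC box GGGCGG or the CCAAT box, which do not overlap here. The windows of the 2 starts of Vamp4 are chr1:162570265-162570514 and chr1:162570578-162570827, that of Stx18 is chr5:38038980-38039229 and that of Scfd1 is chr12:51377263-51377512, all on the plus strand.
Vamp4, upstream start: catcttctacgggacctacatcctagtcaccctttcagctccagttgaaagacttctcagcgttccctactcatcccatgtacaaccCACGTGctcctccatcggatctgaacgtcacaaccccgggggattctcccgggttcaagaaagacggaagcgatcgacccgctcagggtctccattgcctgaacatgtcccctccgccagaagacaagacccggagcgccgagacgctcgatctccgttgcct
Vamp4, downstream start: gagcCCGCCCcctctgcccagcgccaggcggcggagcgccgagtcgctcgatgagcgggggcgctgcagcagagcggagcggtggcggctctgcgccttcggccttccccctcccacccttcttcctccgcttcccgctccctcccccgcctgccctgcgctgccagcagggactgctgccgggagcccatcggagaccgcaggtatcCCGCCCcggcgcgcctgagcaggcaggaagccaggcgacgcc
Stx18: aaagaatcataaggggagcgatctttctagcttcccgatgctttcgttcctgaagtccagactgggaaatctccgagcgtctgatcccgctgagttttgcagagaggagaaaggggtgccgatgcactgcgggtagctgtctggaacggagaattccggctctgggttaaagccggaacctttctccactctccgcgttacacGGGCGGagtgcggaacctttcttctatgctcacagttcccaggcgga
Scfd1: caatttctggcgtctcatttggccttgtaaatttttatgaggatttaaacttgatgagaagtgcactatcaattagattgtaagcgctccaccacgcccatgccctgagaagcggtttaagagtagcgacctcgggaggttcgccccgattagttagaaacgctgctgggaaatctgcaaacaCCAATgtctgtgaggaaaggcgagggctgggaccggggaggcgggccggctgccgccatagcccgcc

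The upstream window of Vamp4 held 1 E-box and no match to the other motifs, and the downstream window held 2 GC boxes, on the opposite strand, and no E-box. That of Stx18 held 1 GC box and that of Scfd1 held 1 CCAAT box. Over all 32851 RefSeq windows of 250 bases 6.02% held an E-box, 32.7% a GC box and 33.8% a CCAAT box. Among 51 windows of the 44 member genes found in the table these shares were 13.7%, 52.9% and 43.1%. The windows of all genes were not limited to tested genes, and a gene can have several. The 2 sets are therefore not alike, and the difference was not tested. These matches are a description of the letters and not of factor binding.

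The Q-SNAREs that form a bundle with Vamp4 at the trans-Golgi network are those of Stx6, Stx16 and Vti1a, and none of the 3 passed the test. Stx16 had a log2 fold change of 0.10 ± 0.10, with 319.8 and 329.7 in the knockdown against 318.7 and 285.8 in the control. Stx6 was at -0.18 ± 0.10, and all 5 of its tested probe sets were below 0, between -0.82 and -0.03, without passing. Vti1a was at -0.09 ± 0.23, with 3 dim tested probe sets between -0.17 and 0.20. Scaling moved these genes across the threshold in opposite directions: with quantile scaling Stx16 passed at 0.29 (limma adjusted p = 0.0244), and with spike-in scaling Stx6 passed at -0.32 (limma adjusted p = 0.0338). On the deposited scale 1 of the 4 SNARE genes of this membrane was thus called, Vamp4 itself. Tether genes of this membrane are given with the other tethers below.

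**Figure D1:**
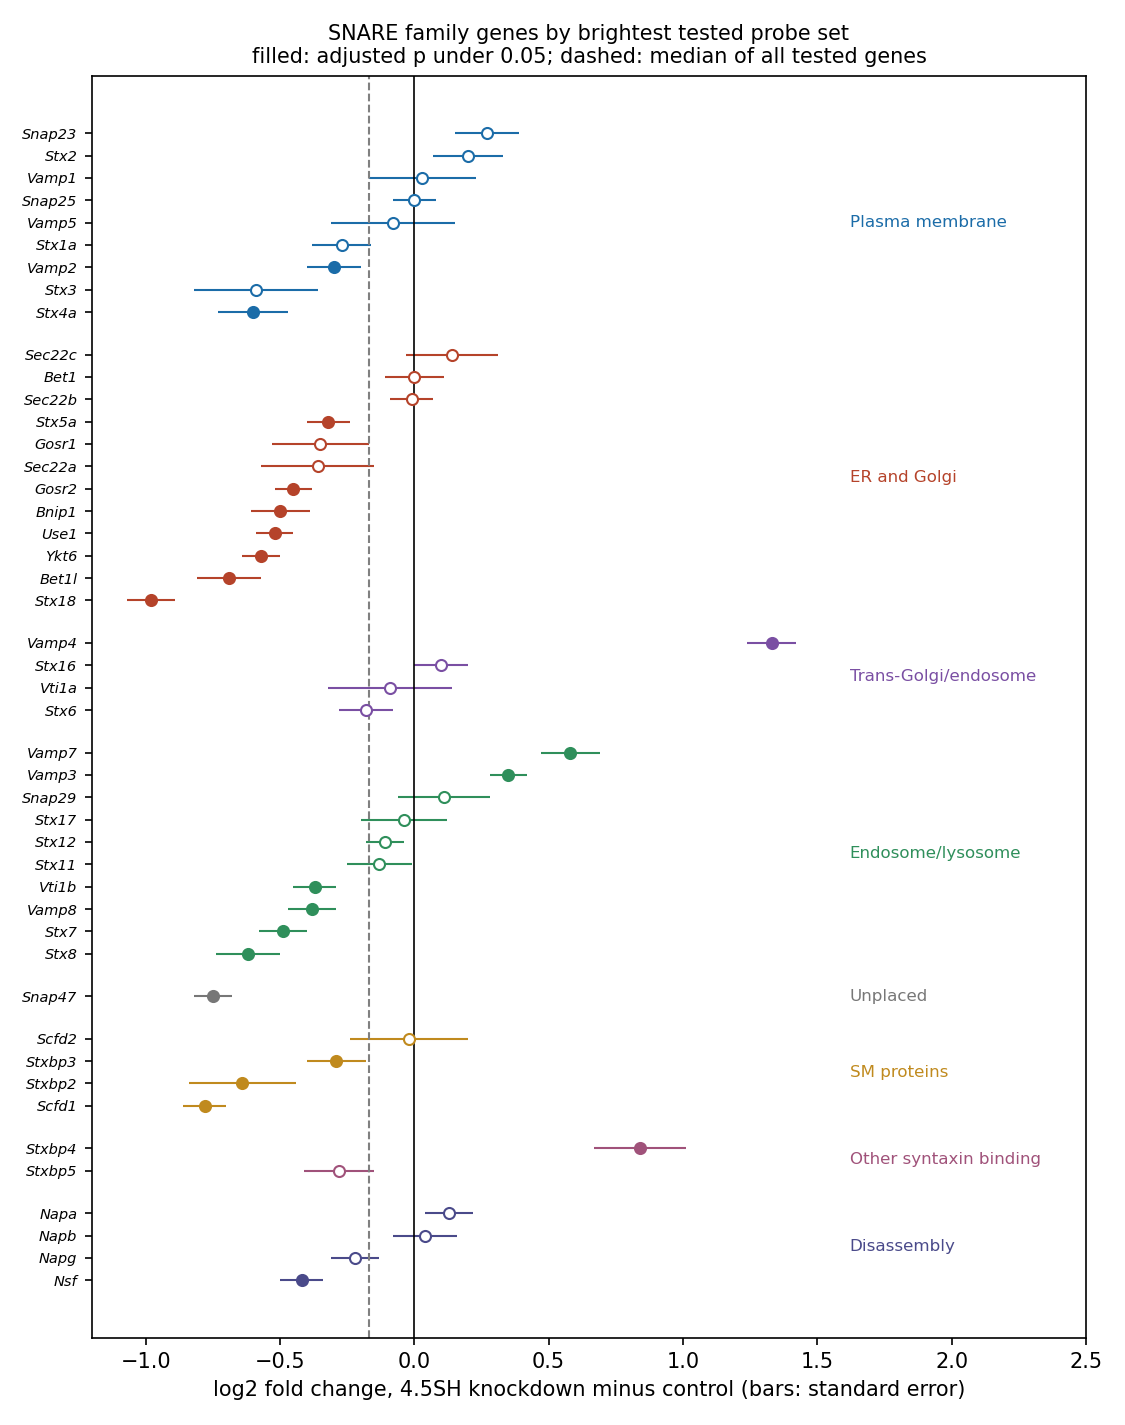
Log2 fold change (knockdown minus control, x axis) of the 46 tested genes by brightest probe set, grouped by membrane or role, with standard errors from 2 knockdown and 2 control arrays. Filled points passed at an adjusted p of 0.05, and the dashed line marks the median of all tested genes at -0.17. Vamp4 lies at 1.33, apart from the other members, and 7 of the 12 ER and Golgi genes are filled to the left.

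Over all members 4 of 46 tested genes rose and 18 fell, and 24 did not pass. The share that rose, 8.70%, compares with 8.95% of all tested genes, and the share that fell, 39.1%, with 32.9%. At probe set level 9 of 102 rose (8.82%, against 9.76% of all tested probe sets) and 26 fell (25.5%, against 25.8%). Knockdown signals lay above both control signals in 9 of the 46 genes (19.6%, against 19.7% of all genes) and below both in 26 (56.5%, against 51.7%). The family as a whole was therefore close to the background of the array on each of these counts. Changes that passed and were at least 2-fold were found at 3 probe sets upward, against 0.506% of all tested probe sets, and at 1 downward, against 1.77%. Those upward were both tested probe sets of Vamp4 and 1 dim probe set of Vamp3, and the downward one was of Stxbp2. The Vamp3 probe set had a control mean of 13.8 and the Stxbp2 one a knockdown mean of 12.4, both below the level of the filter. As the filter used the mean over all arrays, each was tested only through its brighter group, and the size of its change is uncertain. The median log2 fold change of the members was -0.24, and that of all tested genes -0.17.

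The calls depended on how the arrays were scaled. Across the deposited scale, quantile scaling, array centring and spike-in scaling, 3 genes rose on all 4: Vamp4, Vamp7 and Stxbp4. Genes that fell on all 4 numbered 12: Stx18, Bet1l, Ykt6, Use1, Bnip1 and Gosr2 of the ER and Golgi, Stx7 and Stx8 of endosomes, Stx4a of the plasma membrane, and Snap47, Scfd1 and Nsf. On at least 1 of the 4 scales 8 genes rose and 23 fell. The same counts over all tested genes were not made, so how the members compare with them is not known. Of the 46 genes 4 rose and 18 fell as deposited, 7 rose and 13 fell with quantile scaling, 7 rose and 15 fell with array centring, and with spike-in scaling 3 were higher and 23 lower. Among all tested genes 8.95% rose and 32.9% fell as deposited, and 16.8% and 21.4% with quantile scaling. These shares were 15.9% and 23.0% with array centring, and 4.05% and 42.2% with spike-in scaling.

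The group of the endoplasmic reticulum (ER) and the Golgi is the largest, with 12 tested genes. On the deposited scale 7 fell, none rose and 5 did not pass, against 32.9% of all tested genes that fell. With quantile scaling 6 fell (21.4% of all genes), with array centring 7 (23.0%) and with spike-in scaling 7 (42.2%). Bright genes fell more often: among the brightest 25%, which held 9 of this group's 12 genes, 46.8% of all genes fell. There the group's median was -0.50, against -0.20 for all genes. The group includes Sec22a and Sec22c, which resemble Sec22b but lack the SNARE motif, and neither passed on the deposited scale. The group's median log2 fold change was -0.40, against -0.17 for all tested genes. It was -0.29 with quantile scaling, -0.27 with array centring and -0.53 with spike-in scaling, below the median of all genes on each scale. The 4 SM protein genes among the members had a lower median still, at -0.46 as deposited and -0.59 with spike-in scaling. It was -0.33 with quantile scaling and with array centring. Of these 4 genes 3 fell as deposited and with spike-in scaling, but 2 with quantile scaling and 1 with array centring.

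The SNARE complex that takes vesicles back from the Golgi to the ER is made of Stx18, Use1, Bnip1 and Sec22b. The first 3 of these fell, against 32.9% of all tested genes, and the complex was named after values were seen. Stx18 read 374.7 and 340.9 in the knockdown against 769.9 and 669.9 in the control. Its log2 fold change was -0.98 ± 0.09 (limma adjusted p = 4.71e-06). Both knockdown arrays were well under both control arrays at this probe set. Of its 5 tested probe sets 4 fell, and the dimmest was at -0.23 and did not pass. Some probe sets, those ending in _x_at or _s_at, may also bind other transcripts. Without them Stx18 was at -0.60, and as the mean of its probe sets at -0.64, and it passed both ways.

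Use1, a Q-SNARE of the ER, read 1105.1 and 1256.2 in the knockdown against 1699.1 and 1683.6 in the control, a log2 fold change of -0.52 ± 0.07 (limma adjusted p = 8.39e-05). A further probe set for Use1 fell by 0.46 and the dimmest one was at -0.02, and their mean was -0.33. Bnip1 encodes the mammalian Sec20 protein, also a Q-SNARE of this complex. It had 1 probe set, which read 178.8 and 174.3 in the knockdown against 258.6 and 252.4 in the control (log2 fold change -0.50 ± 0.11, limma adjusted p = 0.00242), and -0.33 with quantile scaling. The groups did not overlap for either gene. Sec22b, the R-SNARE of the complex, did not pass: its brightest probe set was at -0.01 ± 0.08, with 567.6 and 554.3 in the knockdown against 586.1 and 545.9 in the control. A dimmer probe set of Sec22b rose, with 222.2 and 268.0 in the knockdown against 196.8 and 169.7 in the control (log2 fold change 0.39 ± 0.12, limma adjusted p = 0.0241).

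A tether of vesicles at the ER that binds these SNAREs consists of the proteins of Nbas, Zw10 and Rint1. Nbas fell by 0.60 ± 0.11, with 265.8 and 240.8 in the knockdown against 355.6 and 429.9 in the control (limma adjusted p = 0.0008). Zw10 fell by 0.33 ± 0.08 (limma adjusted p = 0.00654). The fall of Zw10 did not pass with quantile scaling (-0.13, limma adjusted p = 0.173), without the intensity trend (limma adjusted p = 0.066) or without control replicate 1 (-0.28, limma adjusted p = 0.0589). Rint1 was at 0.02 ± 0.21 on a dim probe set. Scfd1 encodes the SM protein of the ER and Golgi, which acts on the syntaxins of Stx5a and Stx18. It fell by 0.78 ± 0.08, with 464.1 and 450.7 in the knockdown against 772.8 and 820.9 in the control (limma adjusted p = 8.05e-06). The groups were clearly apart at its only tested probe set, and its other 2 probe sets were under 14 on every array.

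The Golgi syntaxin of Stx5a pairs with the proteins of Gosr1, Gosr2, Bet1, Bet1l, Sec22b and Ykt6 for traffic into and within the Golgi. Of these 7 genes 4 fell and 3 did not pass, against 32.9% of all tested genes that fell. Ykt6, a lipid-anchored R-SNARE, read 919.1 and 894.3 in the knockdown against 1380.3 and 1330.2 in the control, a log2 fold change of -0.57 ± 0.07 (limma adjusted p = 2.31e-05). Its dimmer probe set was at -0.11 and did not pass, and the mean of both was -0.34. Bet1l, a SNARE of the later Golgi cisternae, read 105.8 and 104.6 in the knockdown against 180.0 and 179.6 in the control (log2 fold change -0.69 ± 0.12, limma adjusted p = 0.000559). The knockdown arrays were below the control arrays for both genes. The other 3 tested probe sets of Bet1l were between -0.43 and -0.29 without passing, and the mean of all 4 was -0.44.

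Gosr2, a Q-SNARE of ER to Golgi transport, was at -0.45 ± 0.07 (limma adjusted p = 0.000332), with 716.6 and 669.0 in the knockdown against 963.1 and 944.1 in the control. This probe set ends in _s_at. The other, at 0.09, did not pass, nor did the mean of both, at -0.18. Stx5a was at -0.32 ± 0.08 (limma adjusted p = 0.00473), and no longer passed with quantile scaling (-0.13, limma adjusted p = 0.15). The call was also lost without the intensity trend (limma adjusted p = 0.0636) and when the _x_at and _s_at probe sets were left out (-0.41, limma adjusted p = 0.0658). Bet1, the SNARE of ER to Golgi vesicles that resembles Bet1l, was at 0.00 ± 0.11, with 210.3 and 210.0 in the knockdown against 221.7 and 197.9 in the control. Gosr1, Sec22a and Sec22c did not pass, at -0.35, -0.36 and 0.14. Sec22a, whose probe set was dim, passed without control replicate 2, at -0.66 (limma adjusted p = 0.0246).

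**Figure D2:**
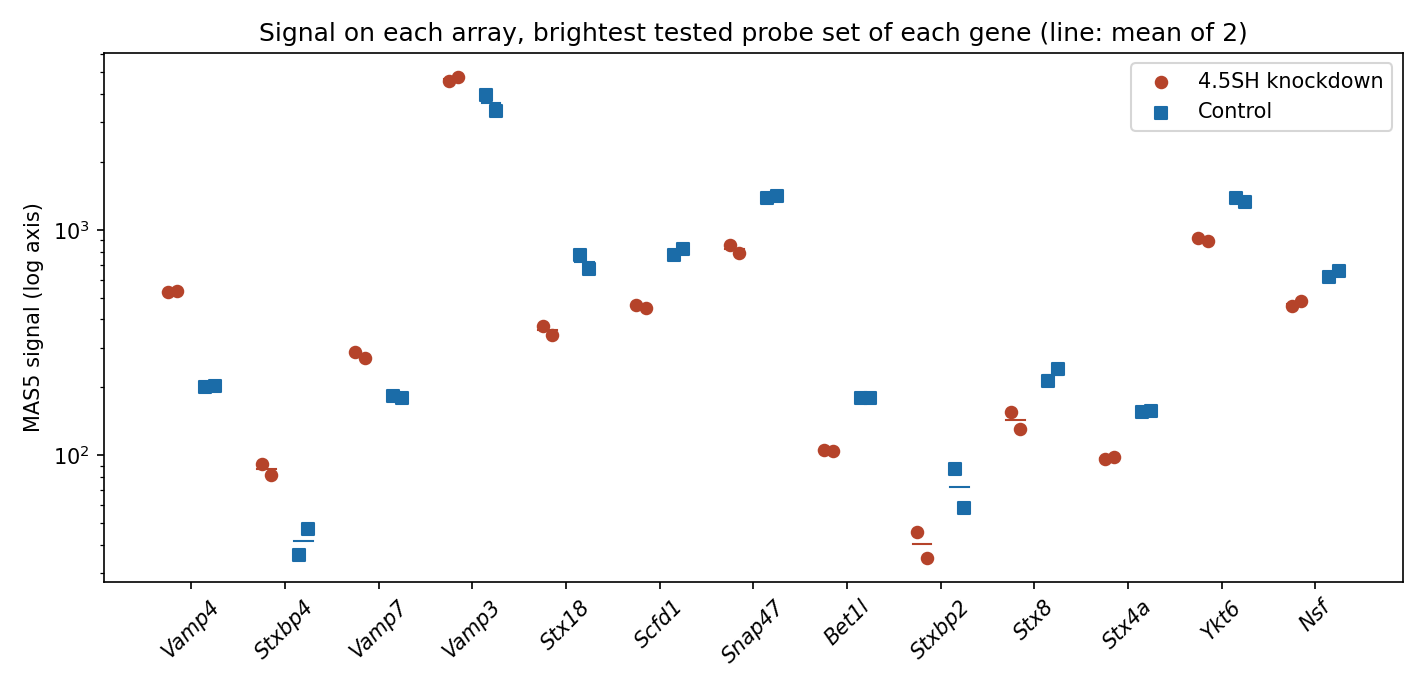
MAS5 signal on each of the 4 arrays (log axis) for the 13 genes described in full, at the brightest tested probe set, with knockdown arrays as circles on the left and control arrays as squares on the right of each gene. Short lines are means of 2 arrays. Genes were chosen mainly for called changes without overlap, so the separation of the groups follows from the choice, with Vamp4 at 530.2 and 533.8 against 201.0 and 203.3.

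Endosome and lysosome SNAREs had 10 tested genes, with 2 higher, 4 lower and 4 that did not pass. Among all tested genes 8.95% rose and 32.9% fell. Both shares were larger in this group, but it has only 10 genes and the difference was not tested. The group's median was -0.12 on the deposited scale, against -0.17 for all genes, and turned to 0.06 with quantile scaling and 0.01 with array centring. As means of probe sets per gene it was -0.28, against -0.14 for all genes, so its place relative to all genes depended on how probe sets were combined.

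Both genes that rose in this group encode R-SNAREs. Vamp7, an R-SNARE of late endosomes and lysosomes that also takes part in neurite outgrowth, read 288.2 and 269.2 in the knockdown against 182.3 and 179.7 in the control. Its log2 fold change was 0.58 ± 0.11 (limma adjusted p = 0.000749). Its dimmer probe set read 150.8 and 165.9 in the knockdown against 123.8 and 107.8 in the control, and rose by 0.40 ± 0.13 (limma adjusted p = 0.0247). The groups did not overlap at either. Vamp3, the R-SNARE of recycling endosomes also called cellubrevin, read 4586.2 and 4756.2 in the knockdown against 3965.0 and 3364.6 in the control at its brightest probe set. This was a log2 fold change of 0.35 ± 0.07 (limma adjusted p = 0.000891). The probe set ends in _x_at. Of its other 4 tested probe sets 3, which read 341.5 or more on every array, were between 0.02 and 0.07 and did not pass. A dim one, also ending in _x_at, read 85.2 and 45.9 in the knockdown against 8.9 and 18.7 in the control and rose by 1.43 ± 0.26 (limma adjusted p = 0.000718). Without probe sets of that kind Vamp3 was at 0.02 (limma adjusted p = 0.852), with spike-in scaling at 0.21 (limma adjusted p = 0.0701), and it did not pass without the intensity trend (limma adjusted p = 0.0903).

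The Q-SNAREs that pair with the R-SNAREs of Vamp7 and Vamp8 in late endosomes, those of Stx7, Stx8 and Vti1b, all fell on the deposited scale. The share of all tested genes that fell was 32.9%. Stx8 read 154.9 and 130.6 in the knockdown against 212.8 and 241.7 in the control, a log2 fold change of -0.62 ± 0.12 (limma adjusted p = 0.00151). Its dimmer probe sets were at -0.46 and 0.07 and did not pass, and the mean of its probe sets, at -0.34, did not pass (limma adjusted p = 0.0779). Stx7 read 508.6 and 542.0 in the knockdown against 797.5 and 689.3 in the control (log2 fold change -0.49 ± 0.09, limma adjusted p = 0.000742), and -0.29 with quantile scaling. Vti1b was at -0.37 ± 0.08 (limma adjusted p = 0.00281), with 829.5 and 737.1 in the knockdown against 1057.5 and 969.9 in the control. All 3 had both knockdown values below both control values, as did 51.7% of all tested genes. Vti1b did not pass with quantile scaling (-0.19, limma adjusted p = 0.0846) or without the intensity trend (limma adjusted p = 0.0734).

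Vamp8, an R-SNARE of late endosomes and of autophagosome fusion, fell by 0.38 ± 0.09 (limma adjusted p = 0.00469), with 315.4 and 314.4 in the knockdown against 419.8 and 410.6 in the control. With quantile scaling it was at -0.20 and did not pass (limma adjusted p = 0.0766). Its partners on autophagosomes did not pass: Stx17 was at -0.04 ± 0.16 and Snap29 at 0.11 ± 0.17. Stx12, an early endosome syntaxin, was at -0.11 ± 0.07 and Stx11 at -0.13 ± 0.12. A dimmer probe set of Stx11 fell by 0.51 ± 0.13 (limma adjusted p = 0.00569), with 109.8 and 128.1 in the knockdown against 179.3 and 173.0 in the control. As means of their probe sets both passed, Stx11 at -0.32 (limma adjusted p = 0.0168) and Stx12 at -0.24 (limma adjusted p = 0.0446). Among the 9 tested R-SNARE genes, which include Sec22b and Ykt6, 3 rose (Vamp3, Vamp4 and Vamp7), 3 fell (Vamp2, Vamp8 and Ykt6) and 3 did not pass. The shares of all tested genes were 8.95% that rose and 32.9% that fell.

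**Figure D3:**
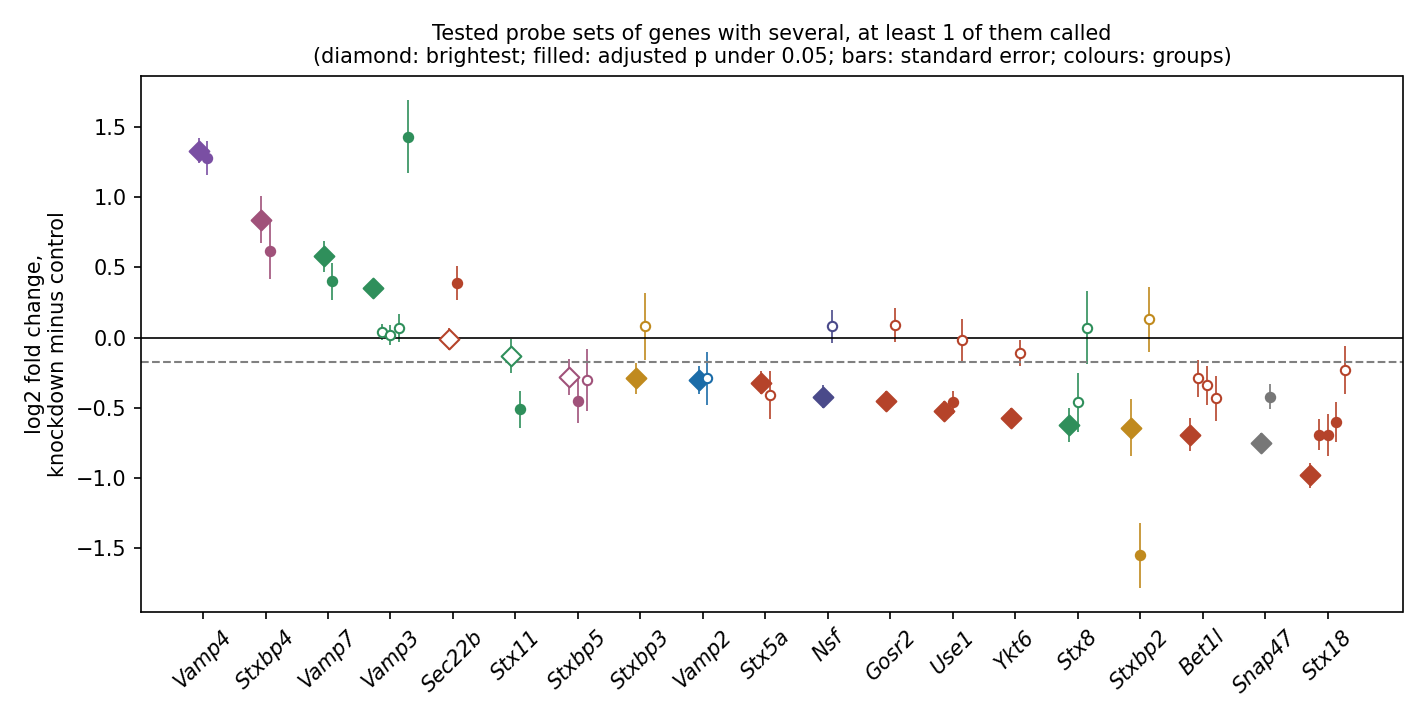
Log2 fold change with standard error (knockdown minus control, y axis) of each tested probe set, for the 19 genes that had several and at least 1 called. Diamonds are the brightest probe sets, and filled symbols passed. In Vamp4, Vamp7, Stxbp4 and Snap47 each tested probe set passed in the same direction; in the other 15 at least 1 did not pass, and no gene had probe sets called in both directions.

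Plasma membrane SNAREs carry out exocytosis. Of 9 tested genes 2 fell, none rose and 7 did not pass. Of all tested genes 32.9% fell and 8.95% rose. The group's median was -0.08, against -0.17 for all genes, and 0.05 against -0.03 with array centring. It lay below all genes with quantile scaling (-0.06 against -0.04), on the brightest 25% (-0.27 against -0.20) and as means of probe sets (-0.16 against -0.14), so it had no fixed place relative to all genes. The core of transmitter release in neurons is formed by the proteins of Stx1a, Snap25 and Vamp2. Snap25 read 584.2 and 632.4 in the knockdown against 607.5 and 609.2 in the control, with overlap and a log2 fold change of 0.00 ± 0.08. Stx1a read 210.0 and 189.5 in the knockdown against 233.1 and 254.1 in the control and did not pass, at -0.27 ± 0.11, but passed with spike-in scaling at -0.40 (limma adjusted p = 0.0173). Vamp2, the R-SNARE of synaptic vesicles, read 338.8 and 391.8 in the knockdown against 445.5 and 457.7 in the control, a log2 fold change of -0.30 ± 0.10 (limma adjusted p = 0.0261).

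The call for Vamp2 was lost with quantile scaling (-0.12, limma adjusted p = 0.333), with array centring (-0.17, limma adjusted p = 0.154), with no filter (limma adjusted p = 0.0806) and without the intensity trend (limma adjusted p = 0.113). It was also lost without knockdown replicate 1 (-0.20, limma adjusted p = 0.22), control replicate 1 (limma adjusted p = 0.067) or control replicate 2 (limma adjusted p = 0.0999). Stx4a, a syntaxin that acts in exocytosis in many cell types, had the firmer fall. It read 95.9 and 98.5 in the knockdown against 155.3 and 156.6 in the control, with no overlap, at -0.60 ± 0.13 (limma adjusted p = 0.00199). Snap23, the relative of Snap25 found outside neurons as well, was at 0.27 ± 0.12 and did not pass on the deposited scale (limma adjusted p = 0.0949). It passed with quantile scaling at 0.44 (limma adjusted p = 0.0102), with array centring at 0.40 (limma adjusted p = 0.0133) and without knockdown replicate 1 at 0.42 (limma adjusted p = 0.036). Stx2, Vamp1, Vamp5 and Stx3 did not pass on the deposited scale, at 0.20, 0.03, -0.08 and -0.59. Stx2 passed with array centring at 0.33 (limma adjusted p = 0.0491). Stx3 passed with spike-in scaling at -0.67 (limma adjusted p = 0.0347) and without the intensity trend (limma adjusted p = 0.0277). The probe set of Stx3 was dim, with 14.2 and 14.5 in the knockdown against 33.2 and 26.4 in the control. Its knockdown mean, 14.35, was below the level of the filter. Stx3 was thus tested only through its brighter control arrays, and the size of its change is uncertain.

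The compartments were also set against each other within an array, where the scaling cancels in part. Each gene's log2 values were centred on its mean over the 4 arrays, and the group medians were subtracted. The ER and Golgi median minus the plasma membrane median was -0.17 and -0.17 on the knockdown arrays and 0.19 and 0.02 on the control arrays. These did not overlap, but the 2 control arrays lay about as far from each other as the nearer one lay from the knockdown arrays. The endosome and lysosome median minus the plasma membrane median was -0.02 and -0.11 on the knockdown arrays and 0.08 and -0.13 on the control arrays, and these overlapped. For the trans-Golgi network and endosome group, of 4 genes, it was 0.05 and 0.17 on the knockdown arrays and 0.05 and -0.28 on the control arrays. Differences between compartments were not tested.

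**Figure D4:**
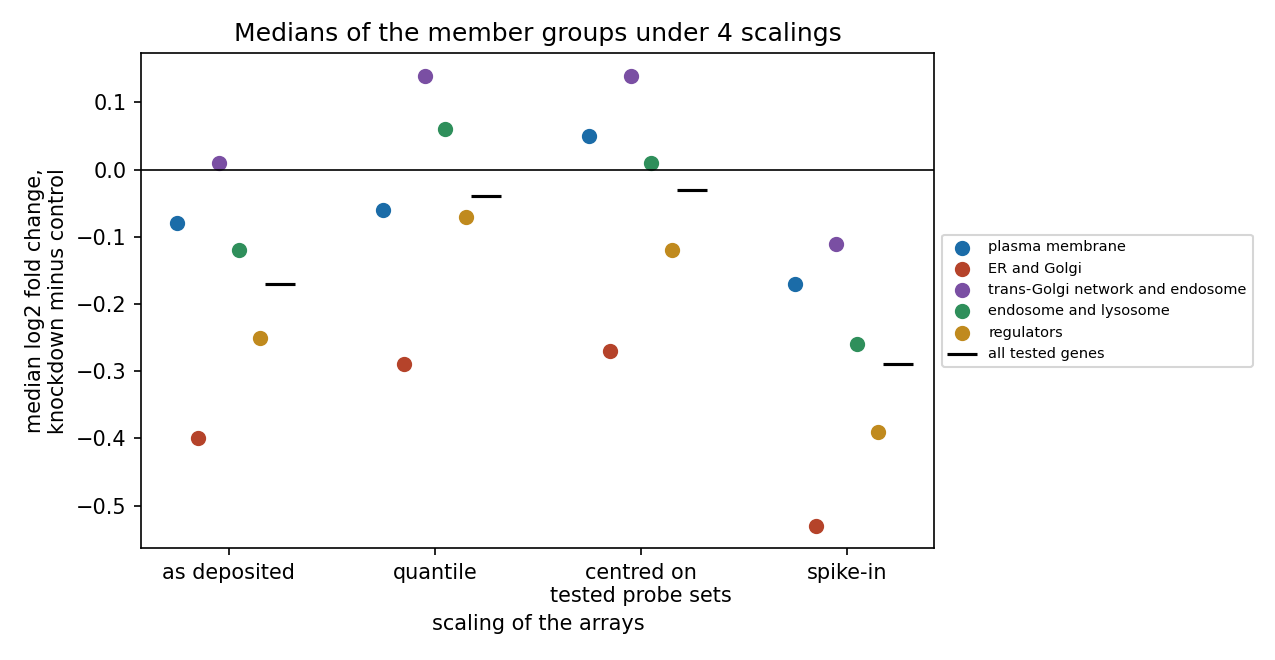
Median log2 fold change (knockdown minus control, y axis) of each group of members under the deposited scale and 3 other scalings of the arrays (x axis), with the median of all tested genes as a black bar. Of the groups drawn, ER and Golgi SNAREs have the lowest median on each scale, from -0.53 with spike-in scaling to -0.27 with array centring, and stay below all genes, whereas endosome and lysosome SNAREs lie on both sides of 0.

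Snap47, a relative of Snap25 spread over several intracellular membranes, was assigned to no compartment. Its brightest probe set, which ends in _x_at, read 860.2 and 789.6 in the knockdown against 1382.9 and 1417.4 in the control, with a log2 fold change of -0.75 ± 0.07 (limma adjusted p = 3.9e-06). Its dimmer probe set read 321.6 and 335.1 in the knockdown against 436.9 and 450.7 in the control and fell by 0.42 ± 0.09 (limma adjusted p = 0.0025). Both probe sets had the knockdown below the control.

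Among the regulators 1 of 10 tested genes rose, 4 fell and 5 did not pass, with a median of -0.25. Among all tested genes 8.95% rose and 32.9% fell, with a median of -0.17. The regulator that rose was Stxbp4, whose protein binds the syntaxin of Stx4a and is known from insulin-stimulated transport of glucose transporter vesicles. It read 91.8 and 82.0 in the knockdown against 36.1 and 47.3 in the control, a log2 fold change of 0.84 ± 0.17 (limma adjusted p = 0.00167). A dimmer probe set read 48.9 and 76.7 in the knockdown against 31.8 and 37.5 in the control and rose by 0.62 ± 0.20 (limma adjusted p = 0.0299). The groups did not overlap at either, and with a pseudocount of 64 the brighter one was at 0.51. Stxbp4 and Stx4a thus had changes of opposite sign.

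Of the SM proteins, Stxbp2, which serves exocytosis in epithelial and blood cells, had the least even probe sets. The brightest read 45.9 and 35.0 in the knockdown against 86.9 and 58.3 in the control, at -0.64 ± 0.20 (limma adjusted p = 0.0213). A dimmer one read 17.8 and 7.0 in the knockdown against 73.3 and 58.3 in the control and fell by 1.55 ± 0.23 (limma adjusted p = 0.000173). The remaining one was at 0.13 and did not pass. The call at the brightest was lost without knockdown replicate 2 (-0.50, limma adjusted p = 0.147) or control replicate 1 (-0.40, limma adjusted p = 0.213), with array centring (-0.51, limma adjusted p = 0.0684), with no filter (limma adjusted p = 0.144) and without the intensity trend (limma adjusted p = 0.0754). Stxbp3, the SM protein that acts with the syntaxin of Stx4a, was at -0.29 ± 0.11, just inside the threshold (limma adjusted p = 0.0489). The call for Stxbp3 was lost in 8 of the alternatives, among them quantile scaling (-0.10, limma adjusted p = 0.45), and without knockdown replicate 1 (-0.18, limma adjusted p = 0.324) or control replicate 1 (-0.22, limma adjusted p = 0.252). Scfd2 was at -0.02 ± 0.22 and Stxbp5, which encodes tomosyn, an inhibitor of SNARE assembly, at -0.28 ± 0.13, and neither passed. With spike-in scaling Stxbp5 passed at -0.41 (limma adjusted p = 0.0352). A dimmer probe set of Stxbp5 fell by 0.45 ± 0.16 (limma adjusted p = 0.0422).

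Nsf, the ATPase that takes used SNARE bundles apart, fell at its brightest probe set, with 457.4 and 483.8 in the knockdown against 616.9 and 653.7 in the control. The log2 fold change was -0.42 ± 0.08 (limma adjusted p = 0.00135), or -0.23 with quantile scaling. A dimmer probe set, which ends in _s_at, read 197.4 and 221.8 in the knockdown against 211.3 and 184.2 in the control, at 0.08 ± 0.12. The groups overlapped there, and the mean of both, at -0.17, did not pass (limma adjusted p = 0.14). Its adaptor genes did not pass on the deposited scale: Napa was at 0.13 ± 0.09, Napb at 0.04 ± 0.12 with 5 tested probe sets between -0.12 and 0.13, and Napg at -0.22 ± 0.09. Napa passed upward with quantile scaling (0.31, limma adjusted p = 0.0151) and with array centring (0.27, limma adjusted p = 0.0261), and Napg passed downward with spike-in scaling (-0.36, limma adjusted p = 0.0148) and among the brightest 25% (limma adjusted p = 0.0396).

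Of 33 member genes with several tested probe sets, 4 had each of them called in the same direction, 15 had some called and some not, and 14 had none called. No gene had probe sets called in opposite directions. The same counts over all genes were not made, so whether this is usual for the array is not known. The 25 untested probe sets had mean signals up to 14.6, and the dimmest tested one a mean of 17.8.

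Other genes of vesicle fusion, those of tethers, calcium sensors and priming factors, were taken from a list of 52, with 51 on the array under a single symbol and 47 tested. Of these 4 rose, 23 fell and 20 did not pass, with a median of -0.22. The shares of all tested genes were the same 8.95% and 32.9% as above. Syt1, the calcium sensor of synaptic vesicles, rose by 1.03 ± 0.12, with 271.7 and 313.6 in the knockdown against 142.3 and 127.6 in the control (limma adjusted p = 1.84e-05), or 0.65 as the mean of its probe sets. Syt4, a synaptotagmin of dense-core vesicles, read 165.5 and 208.7 in the knockdown against 93.2 and 80.7 in the control and rose by 0.97 ± 0.14 (limma adjusted p = 0.000128), or 0.61 as the mean of its probe sets. The exocyst subunit gene Exoc6 read 123.6 and 135.9 in the knockdown against 76.1 and 58.5 in the control and rose by 0.81 ± 0.15 (limma adjusted p = 0.000874). Syt1, Syt4 and Exoc6 each had the knockdown above the control on every array, as did 19.7% of all tested genes. Of the 7 tested synaptotagmin genes, however, 2 rose, 2 fell and 3 did not pass. Those that fell were Syt5, at -0.70 ± 0.13 (limma adjusted p = 0.000754), and Syt7, at -0.61 ± 0.11 (limma adjusted p = 0.000604).

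Among Golgi tethers Uso1, which captures vesicles arriving from the ER, was the remaining gene that rose, at 0.25 ± 0.08, with 650.5 and 660.3 in the knockdown against 555.4 and 543.2 in the control (limma adjusted p = 0.0238). The rise of Uso1 did not pass with spike-in scaling (0.11, limma adjusted p = 0.503), without the intensity trend (limma adjusted p = 0.108) or without any 1 of the 4 arrays (limma adjusted p = 0.0613 to 0.107). In the COG complex, which tethers vesicles within the Golgi, 5 of 8 genes fell and 3 did not pass. Cog3 read 157.3 and 145.9 in the knockdown against 312.6 and 299.9 in the control and fell by 0.94 ± 0.11 (limma adjusted p = 1.84e-05). Cog4 read 456.7 and 459.9 in the knockdown against 712.7 and 736.2 in the control and fell by 0.64 ± 0.08 (limma adjusted p = 3.51e-05). Vps16, a subunit of the tethers of endosomes and lysosomes, read 371.4 and 386.8 in the knockdown against 776.2 and 764.3 in the control and fell by 0.99 ± 0.08 (limma adjusted p = 1.33e-06). Among the 6 measured subunits of those tethers 3 fell and 3 did not pass. In the exocyst, the tether at the plasma membrane, 1 of 8 rose, 2 fell and 5 did not pass. In GARP, a tether at the trans-Golgi network where Vamp4 works, 2 of 4 genes fell, 2 did not pass and none rose. Beside these tether counts, 8.95% of all tested genes rose and 32.9% fell.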

How the data were processed

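Poly(A)+ RNA (200 ng) from the cytoplasm of 2 knockdown and 2 control samples was hybridized to Affymetrix arrays, per the labels' protocols. The deposited intensity values are linear MAS5 signals, per the submitters' processing notes. The sources used here do not give their scaling target. The table held 45101 probe sets, 64 of them controls. Names came from the platform annotation, updated by Entrez identifier (127 of 127 members matched).

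limma 3.58.1 in R 4.3.3 was fitted over all 22524 tested probe sets (eBayes with intensity trend, two-sided, Benjamini-Hochberg adjustment) and tested on simulated data. No exact permutation of 2 against 2 arrays reaches a p under 0.333, so each p borrows variance across probe sets (13.6 degrees of freedom) and measures only the spread between these samples, since separate transfections are not stated.

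Members and lists were chosen with earlier results of these data known. The rule took in full Vamp4, up to 8 of the largest called rises and 8 falls without overlap, the smallest p of any group left, and 3 genes each way of the other fusion list; complexes and other genes were named after values were seen. Alternatives were pseudocounts of 1 and 64, scaling by quantiles, array centring or 9 spike-in probe sets, no filter, the brightest 25%, no trend, a replicate block, each array left out, exclusion of _x_at and _s_at, gene means, and other placements of trans-Golgi SNAREs.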

Additional observations from a re-analysis of the deposited data

How the results depend on the processing

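Scaling the arrays moved several group medians and counts. With quantile scaling 15 member probe sets and 7 member genes rose, and 7 genes of the other fusion machinery. The medians were then -0.29 for the ER and Golgi, 0.06 for endosome and lysosome and -0.07 for regulators. With array centring 14 probe sets and 7 genes rose, and the medians were 0.05 (plasma membrane), -0.27 (ER and Golgi), 0.01 (endosome and lysosome) and -0.12 (regulators). With spike-in scaling 5 probe sets rose and 41 fell, and the medians were -0.17, -0.53, -0.26 and -0.39 in the same order. On the brightest 25% the first 3 were -0.27, -0.50 and -0.25, over fewer genes. As means of probe sets, endosome and lysosome stood at -0.28 and regulators at -0.14. Leaving out 1 array at a time gave -0.49 to -0.37 for the ER and Golgi. The cause of these shifts was not tested. Same-numbered samples did not deviate together (correlation 0.00714), so the numbers were not taken to pair them. With the replicate block 4 member genes rose and 18 fell, 9 member probe sets rose and 30 fell, and Vamp4 stayed at 1.33. No called gene among those described in full changed sign. Gosr2 turned to 0.09 without _x_at and _s_at probe sets. The trans-Golgi network median, 0.01, turned to -0.01 with a pseudocount of 1 and -0.11 with spike-in scaling, and ranged from -0.11 to 0.18 with 1 array left out. Dim signals limit Stx3, Rint1, Stxbp2 and Vti1a.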
